A study of Homo sapiens with 18 samples.

Results

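The 37 genes of the human mitochondrial genome were compared between 2 lung adenocarcinoma cell lines, HCC827 and H1975, in Illumina RNA-seq. The members were every gene whose GENCODE symbol starts with MT- and that lies on chrM: 13 mRNAs, 2 rRNAs and 22 tRNAs, out of 60617 genes in the Illumina count files. Both are established lines with activating EGFR mutations, and each gave 3 RNA samples that the study calls independent, so there were 3 HCC827 and 3 H1975 libraries. No treatment is given for either line, and both were grown in RPMI medium with fetal calf serum to near confluence, dissociated and frozen before RNA extraction. Per the labels' protocols, RNA was selected by its poly(A) tail, 3.75 ng was fragmented for 15 minutes at 94 C, and a directional kit with 11 PCR cycles gave libraries read as 75 nt pairs. Each line is a single established line, so a difference between them belongs to these lines.

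Mitochondrial DNA is a small circle that is copied into RNA from both strands as long transcripts. Most mRNAs and both rRNAs are flanked by tRNA genes, and cutting the tRNAs out of the long transcript releases the RNAs between them. The mRNAs code for membrane subunits of respiratory complexes I, III and IV and of ATP synthase (complex V), the rRNAs build the mitochondrial ribosome, and all proteins that make, cut, modify and degrade these RNAs come from nuclear genes. Most mature mitochondrial mRNAs carry a short poly(A) tail, and the rRNAs carry shorter ones.

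All 37 genes were listed in the Illumina files and had counts in all 6 libraries, with 58 counts as the smallest value of any gene in any library, and all passed the filter on low counts. The 12 long-read libraries of the same RNA samples listed 0 counts for all 37, which for a single gene allows a share of up to 2.58e-06 to 3.68e-06% of gene counts in Oxford Nanopore libraries and of up to 0.00552 to 0.00794% in PacBio libraries if such reads were counted at all. Gene counts ran from 33362018 to 40200473 per Illumina library except in HCC827 replicate 2, which had 10020699. The HCC827 libraries differed more among themselves than the H1975 libraries, with a mean chi-square per gene between replicates of 17.3 to 77.3 in HCC827, against 3.49 to 4.07 in H1975. HCC827 replicate 3, whose file header names a repeat run, stood farthest from the others, by up to 1.41 on the log2 scale for MT-TG. Levels of genes are given in CPM, counts scaled to the effective size of each library, but the marker sums that follow are scaled to total gene counts. Summed epithelial markers (5 of 5 genes detected) reached 7283 to 10564 CPM in HCC827, against 2717 to 2896 CPM in H1975. Most of this sum was KRT8, KRT18 and KRT19. On this scale EPCAM was not higher in HCC827, with 244, 197 and 244 CPM, against 252, 240 and 244 CPM in H1975. CDH1 had 500, 413 and 404 CPM in HCC827, against 353, 339 and 339 CPM in H1975. The 4 lung markers summed to 275 to 334 CPM in HCC827, against 29.9 to 33.8 CPM in H1975. Endothelial, fibroblast and blood cell markers each summed to at most 3.45 CPM in HCC827 and 5.47 CPM in H1975. The part of these differences in the results below was not tested. In bulk RNA, fewer cells with a transcript and less of it per cell cannot be told apart, and the number of mitochondrial genomes per cell was not measured.

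The genes on which the comparison turns are small and lie end to end, so their sequences are shown before their values, 5′ to 3′, from chrM of hg38 with 20 flanking bases on each side. The 4 tRNA genes that were lower in HCC827 lie between MT-ND3 and MT-ND5. The tRNA for arginine is at chrM:10405-10469 on the plus strand, and the window shown is chrM:10385-10489, with the tRNA in capitals.
MT-TR: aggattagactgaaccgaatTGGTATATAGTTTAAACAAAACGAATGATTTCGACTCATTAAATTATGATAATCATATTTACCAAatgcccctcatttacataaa
The tRNAs for histidine, a serine and a leucine follow each other without a gap between MT-ND4 and MT-ND5, in the plus strand window chrM:12118-12356, with the 3 genes in capitals.
MT-TH to MT-TL2: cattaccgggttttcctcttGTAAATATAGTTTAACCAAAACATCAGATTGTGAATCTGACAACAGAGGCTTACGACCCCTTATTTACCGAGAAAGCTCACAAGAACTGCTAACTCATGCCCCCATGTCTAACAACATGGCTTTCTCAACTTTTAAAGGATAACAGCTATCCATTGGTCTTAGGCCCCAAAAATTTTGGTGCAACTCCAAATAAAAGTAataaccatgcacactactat
For contrast, the tRNAs for phenylalanine (chrM:577-647) and threonine (chrM:15888-15953) were the tRNAs with the largest increase. They are shown on the plus strand in the windows chrM:557-667 and chrM:15868-15973, with the tRNA in capitals.
MT-TF: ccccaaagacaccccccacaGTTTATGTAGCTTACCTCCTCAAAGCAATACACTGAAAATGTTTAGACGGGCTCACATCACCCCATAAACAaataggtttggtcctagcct
MT-TT: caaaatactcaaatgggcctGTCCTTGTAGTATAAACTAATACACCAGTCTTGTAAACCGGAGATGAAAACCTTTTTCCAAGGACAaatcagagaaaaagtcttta
The tRNA for leucine at chrM:3230-3304, in the plus strand window chrM:3210-3324, sits between MT-RNR2 and MT-ND1 and had the highest level per length of the heavy strand tRNA genes in both lines.
MT-TL1: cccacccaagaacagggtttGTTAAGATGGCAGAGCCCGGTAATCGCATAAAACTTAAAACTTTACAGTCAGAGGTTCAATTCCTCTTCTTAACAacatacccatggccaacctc
The tRNAs for tyrosine and cysteine had the highest levels per length in HCC827 of all 22 tRNA genes. They lie side by side on the light strand, at chrM:5826-5891 and chrM:5761-5826, and are shown on the minus strand of chrM:5741-5911, MT-TY first and MT-TC after it, both in capitals and sharing 1 base.
MT-TC and MT-TY: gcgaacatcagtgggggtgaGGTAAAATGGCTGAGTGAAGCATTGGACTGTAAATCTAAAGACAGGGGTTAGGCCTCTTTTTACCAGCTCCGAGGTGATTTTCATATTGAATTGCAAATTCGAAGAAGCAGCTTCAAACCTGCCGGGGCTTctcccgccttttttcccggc

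A larger share of all gene counts was mitochondrial in HCC827 than in H1975, and within that share HCC827 had more rRNA per mRNA. The 37 genes took 9.80, 9.52 and 8.84% of gene counts in HCC827 replicates 1 to 3, against 7.21, 7.36 and 7.15% in H1975. The means were 9.39 ± 0.493% in HCC827 and 7.24 ± 0.110% in H1975 (SD, n = 3 each), and every HCC827 library lay above every H1975 library. The 95% Wilson interval of each share is at most 0.0363 percentage points wide and covers counting error only, so the spread between libraries sets the precision. For this share and for the other measures that did not overlap between the lines, the exact two-sided permutation test gave p = 0.1, the smallest that 3 against 3 libraries allow, and p = 0.111 adjusted over the 10 measures, so none could pass a threshold of 0.05.

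The ratio of rRNA to mRNA counts was 0.389, 0.357 and 0.311 in HCC827, against 0.196, 0.199 and 0.201 in H1975, a mean of 0.352 ± 0.0394 in HCC827 and 0.199 ± 0.00252 in H1975 (SD, n = 3 each). The H1975 values were nearly equal, whereas the HCC827 values spread over a range wider than any difference between H1975 libraries. The ratio of tRNA to mRNA counts was 0.0372, 0.0330 and 0.0385 in HCC827, against 0.0276, 0.0318 and 0.0309 in H1975. These groups came close, since HCC827 replicate 2 exceeded H1975 replicate 2 only slightly. Because RNA was selected by poly(A) tail, these ratios are of RNA that was captured, not of all mitochondrial RNA, and counts on a tRNA gene cannot tell a mature tRNA from an uncut transcript that runs through it.

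**Figure D1:**
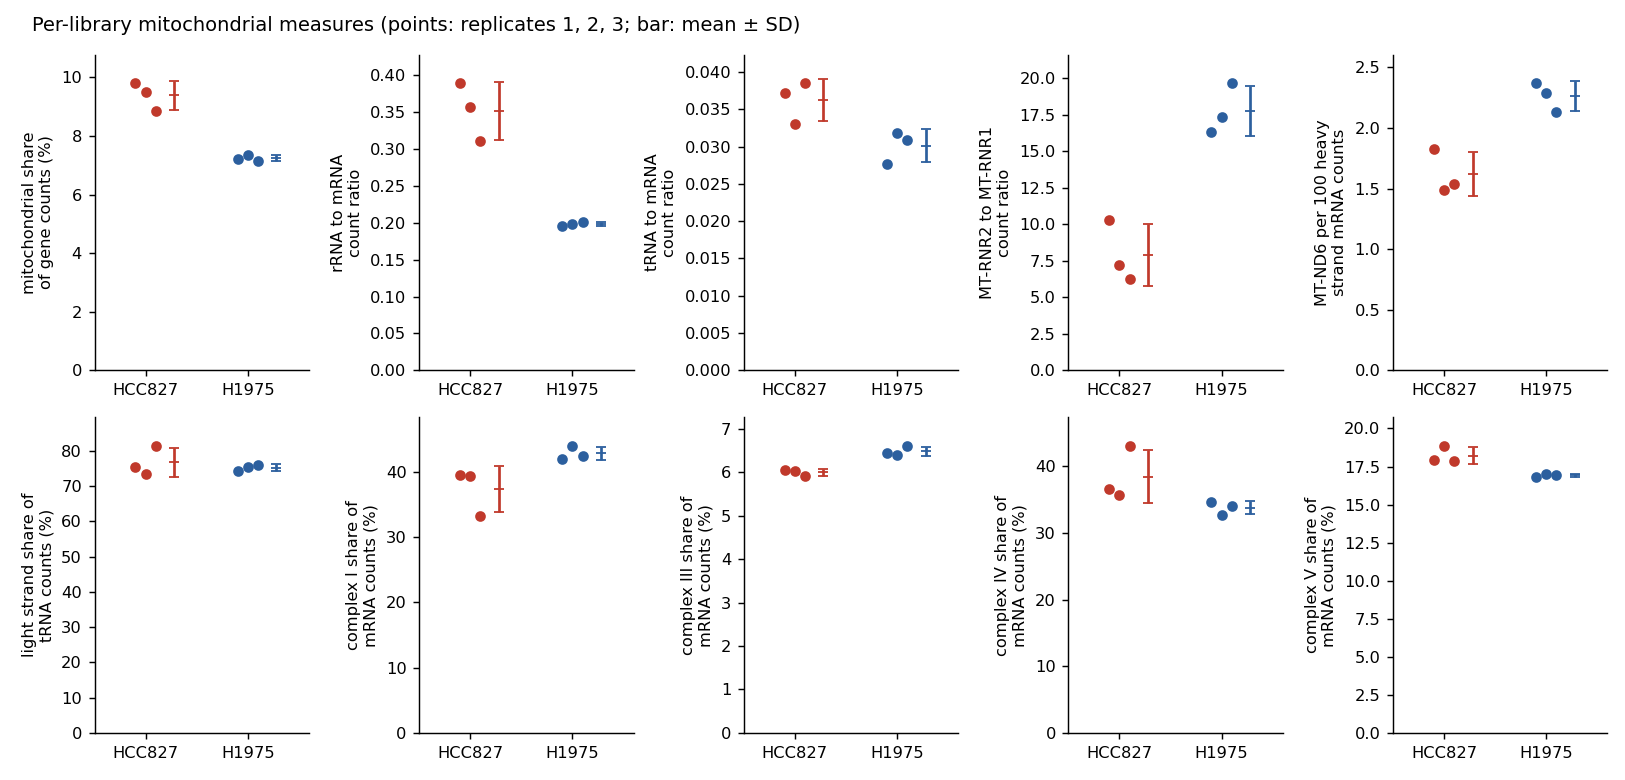
The 10 measures per library, each on an axis that starts at 0, with HCC827 in red on the left and H1975 in blue on the right of each panel; points are replicates 1 to 3 and the bar is the mean with its SD. Of the 10 measures, 9 did not overlap between the lines, and the light strand share of tRNA counts, 73.4 to 81.4% in HCC827 and 74.2 to 76.0% in H1975, did.

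Of the 37 genes, 26 rose and 4 fell in HCC827 relative to H1975 in the edgeR fit of all genes (adjusted p below 0.05), and 7 did not pass. The lines differed at most genes, so the calls need that background. Of 25711 tested genes 74.1% were called, 36.1% higher and 38.0% lower in HCC827. The 30 called of 37 members is thus a share close to the background, whereas the split between directions, 26 to 4, was uneven beside a nearly even split over all genes. The members are copied together in long transcripts, so their directions are not 37 separate observations. The median log2 fold was 0.72 over the 37 members and -0.04 over all tested genes. The CPM of the lines did not overlap for 29 of the 37 members and for 76.9% of all tested genes. MT-TS1 alone was called while its CPM overlapped. Without HCC827 replicate 2 or without HCC827 replicate 3, 27 members were called higher and 4 lower.

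The split depended on the scaling. CPM here uses trimmed mean of M values (TMM) factors, which bring most genes to a common level. With total gene counts and no such factor, the median fold of all genes moved by -0.35, 21 members were called higher and 7 lower, and the members' median was 0.38. Under that scaling MT-ND5, MT-ND6, MT-TE and MT-TG changed sign, MT-ND4, MT-ND4L and MT-ND6 were called lower, and MT-ND2, MT-CO1, MT-CYB, MT-TI and MT-TS1 were no longer called. The ratios between mitochondrial RNAs given below do not depend on this choice.

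Both rRNAs rose, the small one more than the large one. MT-RNR1 (12S rRNA, ENSG00000211459, chrM:648-1601), the RNA of the small ribosomal subunit, had 2514, 3475 and 3315 CPM in HCC827, against 594, 567 and 501 CPM in H1975. Every HCC827 library lay above every H1975 library, and the log2 fold of 2.48 ± 0.14 (SE, edgeR adjusted p = 9.33e-10) was the largest of the 37 members. MT-RNR2 (16S rRNA, ENSG00000210082, chrM:1671-3229), the RNA of the large subunit, had 25857, 25063 and 20615 CPM in HCC827, against 9704, 9838 and 9846 CPM in H1975. Its log2 fold was 1.28 ± 0.11 (SE, adjusted p = 1.10e-07), with no overlap between the lines.

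The 2 rRNAs lie in a row in the same transcript, yet their ratio differed between the lines. MT-RNR2 over MT-RNR1 was 10.3, 7.21 and 6.22 in HCC827, against 16.3, 17.3 and 19.7 in H1975, with means of 7.91 ± 2.12 in HCC827 and 17.8 ± 1.70 in H1975 (SD, n = 3 each; exact permutation p = 0.1). The ranges of the lines did not meet, and the HCC827 libraries differed from each other by more than the H1975 libraries did in proportion to their mean. The share of mitochondrial counts on the rRNAs was 27.3, 25.7 and 23.0% in HCC827, against 16.0, 16.2 and 16.3% in H1975.

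Of the 13 mRNAs, 9 rose, none fell and 4 did not pass the test under TMM scaling, with a median log2 fold of 0.49. Over all tested genes 36.1% were higher and 38.0% lower. With total gene counts MT-ND2, MT-CO1 and MT-CYB were not called, and MT-ND4, MT-ND4L and MT-ND6 were called lower. The calls below are those under TMM scaling. Among the 7 complex I subunits (NADH dehydrogenase, the entry point of electrons from NADH), MT-ND1, MT-ND2 and MT-ND3 rose, and MT-ND4, MT-ND4L, MT-ND5 and MT-ND6 did not pass. MT-ND3 (ENSG00000198840, chrM:10059-10404) moved most of all mRNAs, with 2379, 2542 and 3728 CPM in HCC827, against 789, 734 and 793 CPM in H1975. HCC827 replicate 3 was the highest of the 6 libraries, the lines did not overlap, and the log2 fold was 1.90 ± 0.15 (SE, adjusted p = 4.88e-08). MT-ND1 had 5614, 6696 and 5626 CPM in HCC827, against 3152, 3280 and 3131 CPM in H1975, a log2 fold of 0.91 ± 0.11 (SE, adjusted p = 2.75e-06). MT-ND2 had 4111, 4781 and 3530 CPM in HCC827, against 2975, 3070 and 2822 CPM in H1975, a log2 fold of 0.49 ± 0.12 (SE, adjusted p = 1.93e-03). Both were thus above the H1975 range in every HCC827 library, by less than MT-ND3.

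Under TMM scaling, the 4 complex I mRNAs from MT-ND4L to MT-ND6 lay at nearly the same level in the lines. MT-ND4 had 9842, 10795 and 6985 CPM in HCC827, against 9098, 9662 and 9260 CPM in H1975, a log2 fold of -0.02 ± 0.14 (SE). MT-ND4L, which overlaps it, had 1798, 2040 and 1334 CPM in HCC827, against 1643, 1826 and 1734 CPM in H1975, a log2 fold of -0.01 ± 0.14 (SE). For both genes HCC827 replicates 1 and 2 lay above or within the H1975 range and replicate 3 below it, and without HCC827 replicate 3 their log2 folds were 0.12 each. MT-ND5 had 3662, 3482 and 3177 CPM in HCC827, against 3194, 3239 and 3018 CPM in H1975, a log2 fold of 0.13 ± 0.10 (SE, adjusted p = 0.270). MT-ND6, the single mRNA on the light strand, had 1307, 1174 and 1165 CPM in HCC827, against 1216, 1172 and 1074 CPM in H1975, a log2 fold of 0.07 ± 0.10 (SE, adjusted p = 0.522). The lines overlapped for each of these 4 genes.

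The 3 subunits of complex IV (cytochrome c oxidase, which hands electrons to oxygen) all rose, but unequally. MT-CO2 had 8338, 10512 and 9964 CPM in HCC827, against 3894, 3655 and 3915 CPM in H1975, a log2 fold of 1.33 ± 0.11 (SE, adjusted p = 8.76e-08). MT-CO1, which carries the catalytic centre, had 11073, 10379 and 14567 CPM in HCC827, against 9006, 8340 and 8528 CPM in H1975, a log2 fold of 0.48 ± 0.13 (SE, adjusted p = 3.52e-03). HCC827 replicate 3 was the highest of the 6 libraries for MT-CO1, and the fold without it was 0.29. MT-CO3 had 7290, 7696 and 8617 CPM in HCC827, against 5346, 5120 and 5082 CPM in H1975, a log2 fold of 0.60 ± 0.10 (SE, adjusted p = 1.08e-04).

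The ATP synthase subunits MT-ATP8 and MT-ATP6 and the complex III subunit MT-CYB (cytochrome b) rose by similar amounts. MT-ATP8 had 3998, 4330 and 4100 CPM in HCC827, against 2634, 2684 and 2598 CPM in H1975, a log2 fold of 0.65 ± 0.10 (SE). MT-ATP6 had 9048, 10748 and 9634 CPM in HCC827, against 6209, 6207 and 6116 CPM in H1975, a log2 fold of 0.67 ± 0.10 (SE). MT-CYB had 4413, 4821 and 4548 CPM in HCC827, against 3387, 3348 and 3401 CPM in H1975, a log2 fold of 0.44 ± 0.10 (SE), and none of the 3 genes overlapped between the lines. The first pair shares an mRNA and 46 bases of sequence, shown in capitals in the plus strand window chrM:8507-8592, so reads there cannot be given to either gene alone. MT-ND4L and MT-ND4 likewise share 7 bases, in capitals in the plus strand window chrM:10740-10786.
MT-ATP8 and MT-ATP6 overlap: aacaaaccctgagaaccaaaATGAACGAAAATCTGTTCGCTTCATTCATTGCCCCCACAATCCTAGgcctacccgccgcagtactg
MT-ND4L and MT-ND4 overlap: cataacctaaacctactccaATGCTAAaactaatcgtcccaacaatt
The folds of the members of each pair differed by less than their SE.

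**Figure D2:**
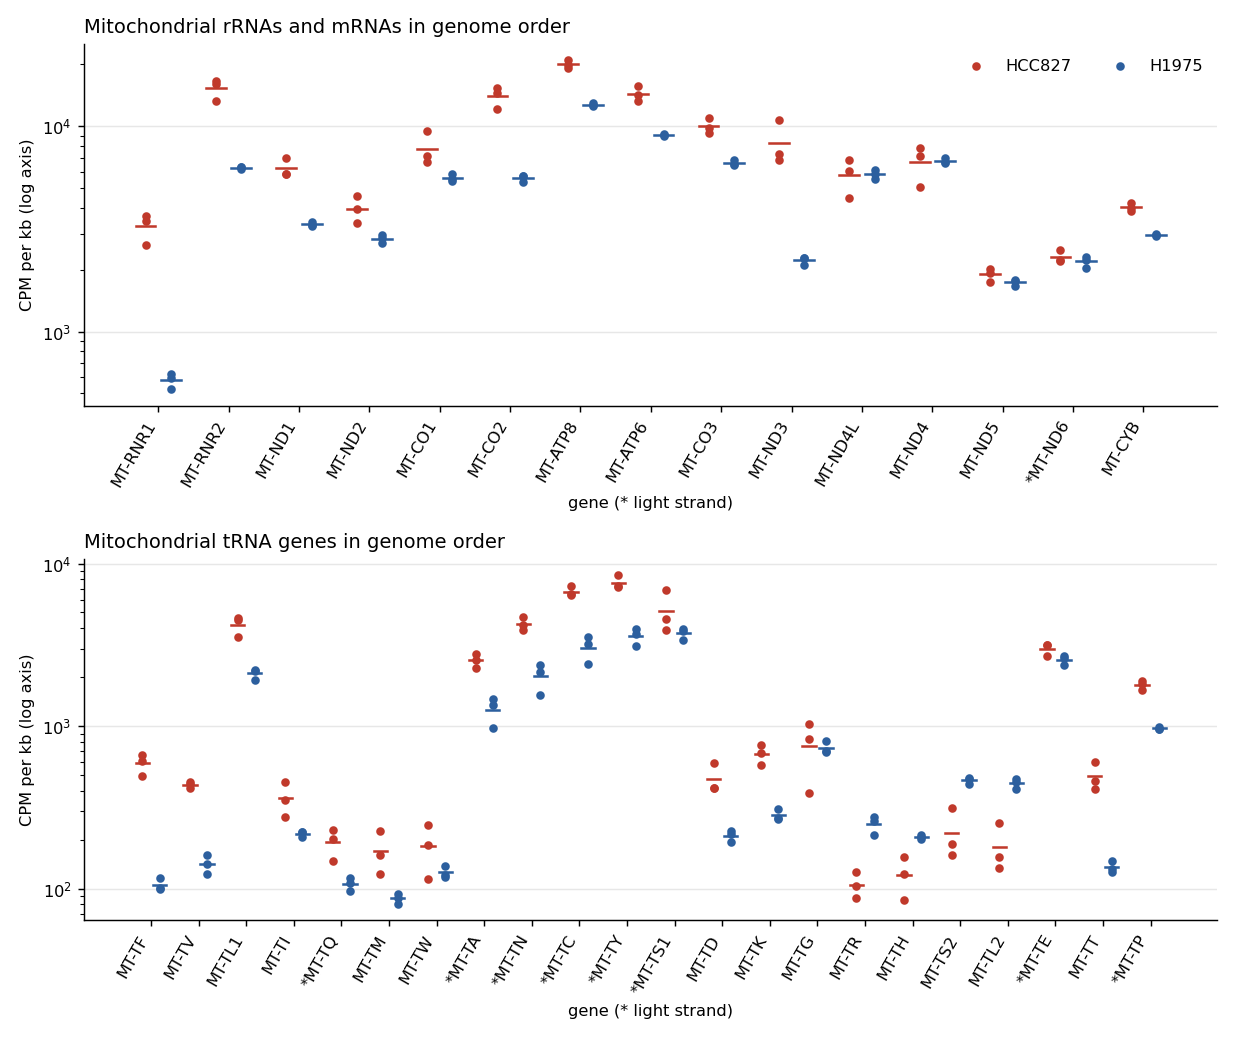
Level of each gene in CPM per kilobase of gene on log axes, in genome order, with rRNAs and mRNAs above and tRNA genes below; points are the 3 HCC827 (red, left) and 3 H1975 (blue, right) libraries and the bar is their mean. MT-RNR1, MT-CO2 and MT-ND3 show the widest gaps above, and MT-TR, MT-TH, MT-TS2 and MT-TL2 are the tRNA genes that lie lower in HCC827.

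Summed by complex, the makeup of the mRNA pool differed between the lines, although the genes within complexes I and IV moved unequally. Complex I mRNAs took 39.4, 39.4 and 33.2% of mitochondrial mRNA counts in HCC827, against 42.0, 43.9 and 42.4% in H1975. Complex IV mRNAs took 36.6, 35.7 and 43.1% in HCC827, against 34.7, 32.7 and 34.0% in H1975. In both cases HCC827 replicate 3 lay farthest from H1975, and without it the difference of means shrank to -3.38 percentage points for complex I, against -5.45 with all libraries, and to 2.36 for complex IV, against 4.65. Complex V took 18.2 ± 0.564% in HCC827 and 16.9 ± 0.0794% in H1975, and complex III 5.997 ± 0.0777% in HCC827 and 6.48 ± 0.110% in H1975 (SD, n = 3 each). All 4 shares separated the lines without overlap, each with an exact permutation p of 0.1. They are parts of the same total, so they are not 4 separate results. MT-ND6 counted per 100 heavy strand mRNA counts was 1.83, 1.49 and 1.54 in HCC827, against 2.37, 2.29 and 2.13 in H1975, so the light strand mRNA made up a smaller part of the mRNA pool in every HCC827 library.

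To set the members against the mRNA pool, the fit was repeated with the summed counts of the 13 mRNAs as the size of each library. Against this pool 16 members were higher and 9 lower in HCC827, where 78.3% of all tested genes were called in either direction. The 25 called of 37 members is thus not a larger share than this background. Shares by direction over all genes were not computed for this fit, so the split has no background. The median fold of all genes moved by -0.54, and the members moved by similar amounts. This is thus the first fit with its zero line moved, not separate evidence. The mRNAs form the pool, so those nearly level under TMM scaling come out lower. Both rRNAs remained higher, MT-RNR1 by a log2 fold of 1.92 ± 0.11 and MT-RNR2 by 0.73 ± 0.10 (SE). Of the mRNAs, MT-ND3 (1.35 ± 0.14), MT-CO2 (0.77 ± 0.10) and MT-ND1 (0.35 ± 0.10) were higher relative to the pool. MT-ND4 (-0.58 ± 0.13), MT-ND4L (-0.56 ± 0.13), MT-ND6 (-0.48 ± 0.11) and MT-ND5 (-0.42 ± 0.10) were lower, and the other 6 did not pass. With this pool and all 6 libraries, the 4 mRNAs that were lower are complex I subunits, and they lie in a row from MT-ND4L to MT-ND6. That pattern depended on the pool and the libraries. Without HCC827 replicate 3, 19 members were higher and 11 lower, and MT-CO1 of complex IV was also called lower (-0.23). When all 37 members formed the pool, MT-ND1 did not pass, with a log2 fold of 0.17. MT-ND2 (-0.25) and MT-CYB of complex III (-0.29) were then also called lower.

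**Figure D3:**
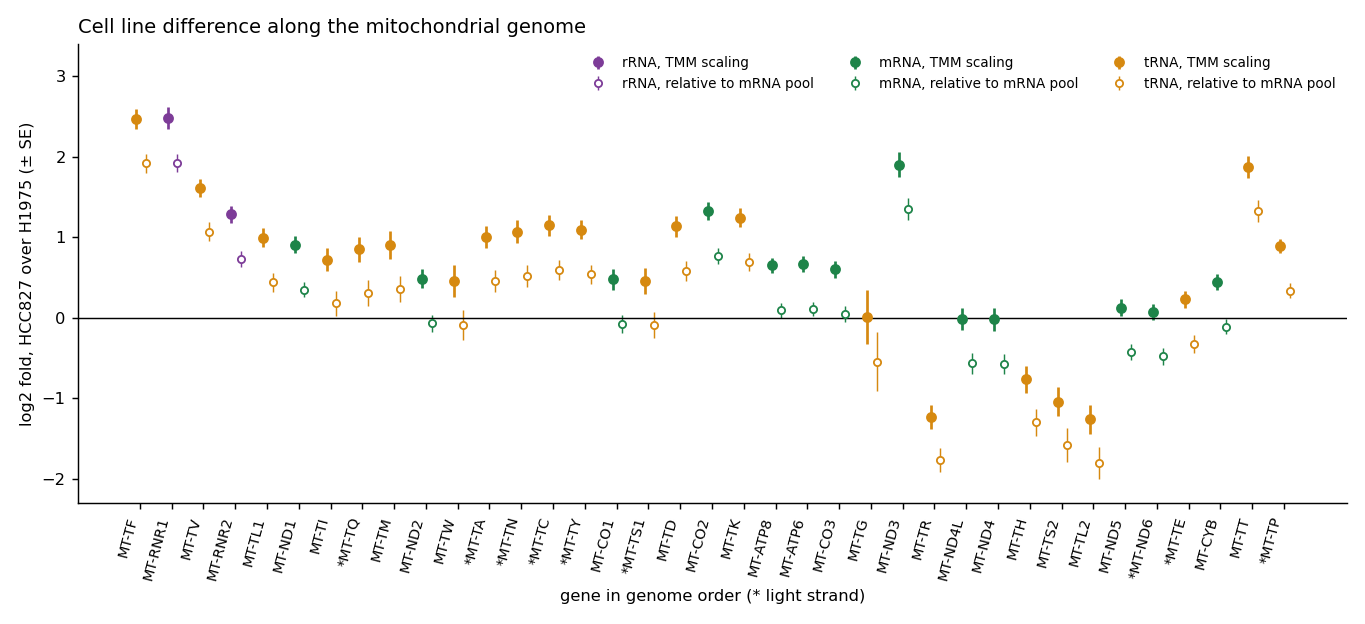
Log2 fold of HCC827 over H1975 with its SE for the 37 genes in genome order; filled symbols are from the fit of all genes with TMM scaling and open symbols from the fit relative to the mRNA pool, and an asterisk marks light strand genes. Values run from 2.48 for MT-RNR1 to -1.26 for MT-TL2 under TMM scaling; with total gene counts MT-ND5, MT-ND6, MT-TE and MT-TG change sign.

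The 22 tRNA genes split between the directions. Of them 15 rose, 4 fell and 3 did not pass under TMM scaling, with a median log2 fold of 0.90. Over all tested genes 36.1% were higher and 38.0% lower, which is also the background for the counts by strand below. With total gene counts MT-TI and MT-TS1 were not called. All 4 that fell are heavy strand genes between MT-ND3 and MT-ND5, whose sequences are given above. MT-TR had 8.21, 6.76 and 5.72 CPM in HCC827, against 18.01, 17.01 and 13.8 CPM in H1975, a log2 fold of -1.23 ± 0.15 (SE, adjusted p = 3.32e-06). MT-TL2 had 17.9, 11.2 and 9.51 CPM in HCC827, against 32.4, 33.5 and 28.9 CPM in H1975, a log2 fold of -1.26 ± 0.18 (SE, adjusted p = 1.63e-05). MT-TS2 had 18.5, 11.2 and 9.47 CPM in HCC827, against 28.02, 28.4 and 26.2 CPM in H1975, a log2 fold of -1.04 ± 0.18 (SE, adjusted p = 1.23e-04). MT-TH had 10.8, 8.51 and 5.92 CPM in HCC827, against 14.3, 14.8 and 13.9 CPM in H1975, a log2 fold of -0.76 ± 0.17 (SE, adjusted p = 9.39e-04). Each of the 4 was lower in every HCC827 library than in any H1975 library, and under each alternative tried their direction and call were kept. Of the mRNAs beside them, MT-ND3, just before MT-TR, rose, and MT-ND4L, MT-ND4 and MT-ND5 did not pass the test. These 3 were called lower relative to the mRNA pool, and MT-ND4L and MT-ND4 also with total gene counts. Both settings move the zero line of the first fit, so these calls are not separate evidence.

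On the heavy strand, 8 of 14 tRNA genes rose. MT-TF, the first gene of the heavy strand transcript, had 34.98, 47.4 and 43.6 CPM in HCC827, against 7.17, 8.27 and 7.04 CPM in H1975, and its log2 fold of 2.47 ± 0.13 (SE, adjusted p = 4.84e-10) was close to that of MT-RNR1, which follows it directly. MT-TT, the last, had 30.5, 27.2 and 39.9 CPM in HCC827, against 8.40, 9.77 and 8.74 CPM in H1975, a log2 fold of 1.87 ± 0.13 (SE, adjusted p = 1.61e-08). MT-TV, between the rRNAs, had 31.2, 30.4 and 28.8 CPM in HCC827, against 9.82, 11.1 and 8.50 CPM in H1975, a log2 fold of 1.62 ± 0.11 (SE, adjusted p = 1.01e-08). For these 3 tRNA genes every HCC827 library lay above every H1975 library. The other 5 that rose were MT-TK (lysine, 1.24), MT-TD (aspartate, 1.13), MT-TL1 (leucine, 1.00), MT-TM (methionine, 0.90) and MT-TI (isoleucine, 0.72), given as log2 folds. The fold of MT-TI was 0.48 without HCC827 replicate 1. MT-TW (tryptophan) had a log2 fold of 0.46 ± 0.20 (SE) with an adjusted p of 0.050007, just above the threshold. Leaving out each library gave folds from 0.26, without HCC827 replicate 2, to 0.70, without HCC827 replicate 3, and it was called without HCC827 replicate 3 and without H1975 replicate 2 (0.53). MT-TG (glycine) had 57.0, 69.9 and 26.5 CPM in HCC827, against 47.8, 55.0 and 46.9 CPM in H1975. HCC827 replicate 3 was the lowest library and the other 2 HCC827 libraries the highest, and without that library MT-TG was called with a log2 fold of 0.31, whereas the fold was -0.24 without HCC827 replicate 2.

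On the light strand, 7 of 8 tRNA genes rose and MT-TE did not pass. MT-TC (cysteine) had 427, 422 and 483 CPM in HCC827, against 159, 232 and 211 CPM in H1975, a log2 fold of 1.15 ± 0.13 (SE, adjusted p = 2.01e-06). MT-TY (tyrosine), its neighbour, had 471, 482 and 561 CPM in HCC827, against 204, 262 and 243 CPM in H1975, a log2 fold of 1.09 ± 0.12 (SE, adjusted p = 1.02e-06). MT-TN (asparagine, 1.07) and MT-TA (alanine, 1.01), the other genes of this cluster of 4, had nearly the same log2 folds. H1975 replicate 1 was the lowest library for all 4. Outside the cluster, the log2 folds were 0.89 for MT-TP (proline), 0.85 for MT-TQ (glutamine) and 0.46 for MT-TS1 (a serine). The call of MT-TS1 was lost without HCC827 replicate 1 (0.55), HCC827 replicate 3 (0.17) or H1975 replicate 2 (0.39). MT-TE (glutamate) had 217, 185 and 218 CPM in HCC827, against 187, 180 and 164 CPM in H1975, a log2 fold of 0.23 ± 0.10 (SE, adjusted p = 0.0574), with folds of 0.17 to 0.32 when each library was left out, and was called without HCC827 replicate 2.

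In both lines tRNA counts lay mostly on light strand genes. Their median level was 3631 CPM per kilobase in HCC827 and 2300 in H1975, whereas that of the heavy strand tRNA genes was 398 CPM per kilobase in HCC827 and 215 in H1975. The light strand genes took 75.3, 73.4 and 81.4% of tRNA counts in HCC827, against 74.2, 75.5 and 76.0% in H1975, and these ranges overlapped (exact permutation p = 0.9). Without HCC827 replicate 3 the difference of means was -0.856 percentage points, against 1.48 with it. No source used here states whether the counting used strand. The light strand tRNA genes and MT-ND6 lie opposite the long heavy strand transcript, and if strand was not used their reads and those of the opposite strand cannot be told apart.

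Relative to the mRNA pool, 11 tRNA genes were higher, 5 lower and 6 did not pass, where 78.3% of all tested genes were called in either direction. MT-TL2 (-1.80 ± 0.20), MT-TR (-1.77 ± 0.15), MT-TS2 (-1.58 ± 0.21), MT-TH (-1.30 ± 0.17) and MT-TE (-0.32 ± 0.11) were the 5 lower ones (log2 fold ± SE). The last of these lost its call without H1975 replicate 1, with a log2 fold of -0.29. MT-TA and MT-TN, 2 of those called higher, lost their calls without HCC827 replicate 1 (0.42 for MT-TA and 0.49 for MT-TN), and MT-TA also without H1975 replicate 1 (0.29). With all 37 members as the pool, MT-TA (0.28) and MT-TP (0.16) were not called.

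Ratios between adjacent genes were compared along the genome, with no scaling between libraries. The 15 mRNAs and rRNAs form 14 adjacent pairs, and the ratio of counts per base did not overlap between the lines for 8 of them. That share is not high for these lines, since the CPM of 76.9% of all tested genes did not overlap. Ratios between other genes were not computed for comparison. The widest gap lay at MT-ND4L over MT-ND3, with 0.881, 0.935 and 0.417 in HCC827, against 2.43, 2.90 and 2.55 in H1975. Just before it, MT-ND3 over MT-CO3 was 0.740, 0.748 and 0.980 in HCC827, against 0.334, 0.325 and 0.353 in H1975. MT-ND3 was thus below MT-ND4L per base in H1975 and above it in HCC827, and MT-TR lies between these genes. MT-CO2 over MT-CO1 was 1.70, 2.28 and 1.54 in HCC827, against 0.975, 0.988 and 1.03 in H1975. MT-ATP8 over MT-CO2 was 1.58, 1.36 and 1.36 in HCC827, against 2.24, 2.43 and 2.19 in H1975. Per base, MT-CO2 was thus above MT-CO1 in every HCC827 library and close to it in H1975, and nearer to MT-ATP8 in HCC827 than in H1975.

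The remaining non-overlapping pairs were MT-RNR2 over MT-RNR1, MT-ND1 over MT-RNR2, MT-ND2 over MT-ND1 and MT-CYB over MT-ND6. Per base, MT-CYB over MT-ND6 was higher in HCC827, with 1.55, 1.89 and 1.80, against 1.28, 1.31 and 1.46 in H1975. MT-ND1 over MT-RNR2 was lower, with 0.354, 0.436 and 0.445 in HCC827, against 0.530, 0.544 and 0.519 in H1975. The ratios within the overlapping pairs were alike: MT-ATP6 over MT-ATP8 averaged 0.719 ± 0.0336 in HCC827 and 0.712 ± 0.00759 in H1975, and MT-ND4 over MT-ND4L 1.15 ± 0.0267 in HCC827 and 1.16 ± 0.0283 in H1975 (SD, n = 3 each).

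**Figure D4:**
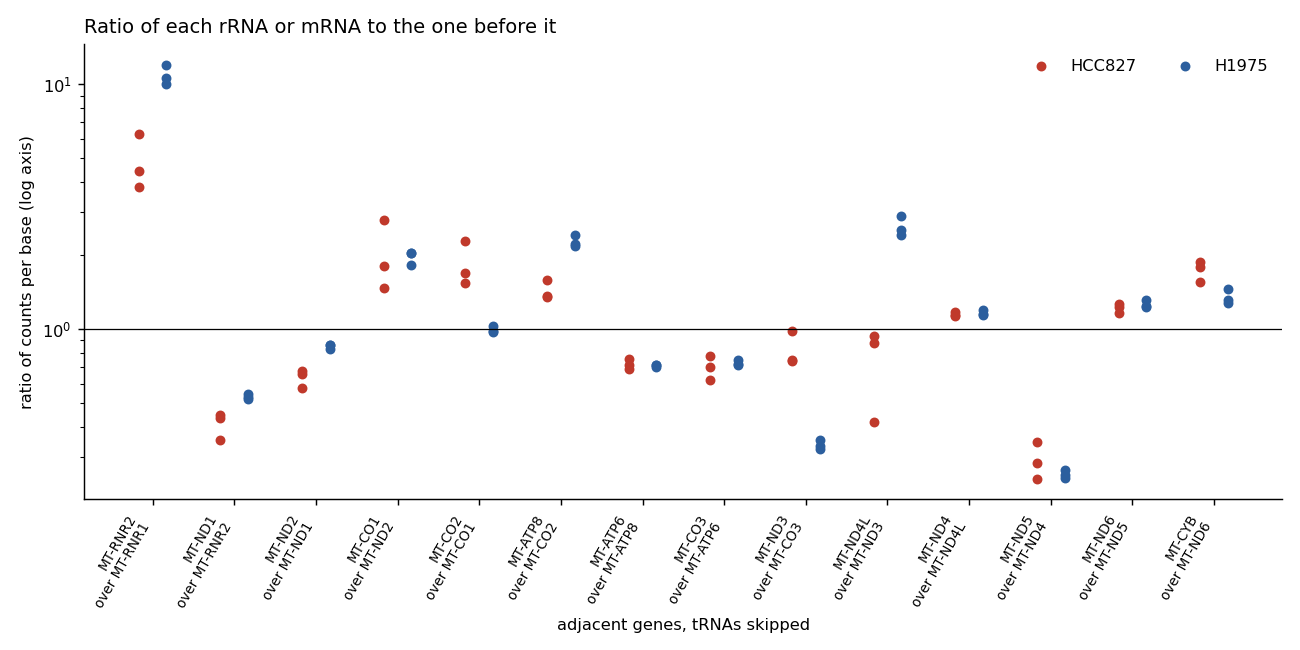
Ratio of counts per base of each rRNA or mRNA to the one before it in genome order, on a log axis, with the tRNA genes between them left out; points are the 3 HCC827 (red, left) and 3 H1975 (blue, right) libraries. MT-ND4L over MT-ND3 lies at 0.417 to 0.935 in HCC827 and at 2.43 to 2.90 in H1975, on opposite sides of 1.

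The order of levels per length differed between the lines at 12 of the 15 mRNAs and rRNAs, and MT-ATP8, MT-CO1 and MT-ND1 held the same rank in both. In CPM per kilobase, MT-ATP8 came first in both lines, with 20014 ± 821 in HCC827 and 12748 ± 209 in H1975 (SD, n = 3 each). MT-RNR2 came next in HCC827 with 15295 ± 1812, followed by MT-ATP6 with 14405 ± 1268 and MT-CO2 with 14042 ± 1653, and these 3 did not differ beyond their spread. In H1975 MT-ATP6 came next with 9071 ± 77.6, followed by MT-ND4 with 6778 ± 210, MT-CO3 with 6611 ± 182 and MT-RNR2 with 6283 ± 51.0, of which MT-ND4 and MT-CO3 did not differ beyond their spread. MT-ND3 was at rank 6 of 15 in HCC827 with 8332 ± 2128 and at rank 12 in H1975 with 2230 ± 94.8. MT-ND4 was at rank 8 in HCC827 and 3 in H1975, and MT-ND4L at rank 10 in HCC827 and 6 in H1975, with levels per length that did not differ beyond their spread. MT-RNR1 was the lowest of the 15 in H1975, with 581 ± 50.3, and at rank 13 in HCC827, with 3251 ± 540, above MT-ND6 (2315 ± 151) and MT-ND5 (1899 ± 135). The level of a short gene per length is less certain, since 75 nt read pairs overlap its ends.

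Across tRNA genes, the log2 fold of a tRNA gene had r = 0.62 with that of the nearest mRNA or rRNA gene on its 3′ side (n = 21) and 0.27 with that on its 5′ side (n = 20), whichever strand the neighbour is on. For heavy strand tRNA genes alone these were 0.73 and 0.39 (n = 13 each). These are descriptions across genes of the same 6 libraries, and several tRNA genes share a neighbour. Over all 37 members the fold had r = 0.21 with GC content and 0.02 with gene length. Of the 13 mRNA genes, 6 (MT-ND1, MT-ND2, MT-CO3, MT-ND3, MT-ND4 and MT-CYB) end in an incomplete stop codon that the poly(A) tail completes. Of these, 5 rose and MT-ND4 did not pass, against 4 of the 7 with a complete stop. These are TMM counts, beside 36.1% of all tested genes higher. With total gene counts MT-ND2, MT-CYB and MT-CO1 were not called.

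Nuclear genes whose products handle mitochondrial RNA and DNA moved in both directions. Of 75 listed genes 73 were tested, and 28 were higher and 31 lower in HCC827, with a median log2 fold of -0.08. The share called was close to that of all tested genes, of which 36.1% were higher and 38.0% lower. With total gene counts in place of TMM, 14 were higher and 42 lower. Among 9 transcription genes 3 rose and 5 fell, with a median of -0.68. POLRMT, the mitochondrial RNA polymerase, rose (0.63 ± 0.13), and its partners TFAM (-0.85 ± 0.10), TFB2M (-0.68 ± 0.12) and TEFM (-0.84 ± 0.13) fell (log2 fold ± SE). MTERF3 and MTERF1, of a family of factors that bind mitochondrial nucleic acids, were among the genes with the largest drops. MTERF3 had 4.84, 5.13 and 5.35 CPM in HCC827, against 13.4, 11.9 and 12.3 CPM in H1975, a log2 fold of -1.30 ± 0.12 (SE). MTERF1, which binds within the MT-TL1 sequence shown above, had 7.40, 8.86 and 9.98 CPM in HCC827, against 17.4, 15.8 and 16.7 CPM in H1975, a log2 fold of -0.93 ± 0.12 (SE).

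Of 10 genes for RNA stability and decay, 1 rose and 7 fell, with a median log2 fold of -0.64. The list is small, and 38.0% of all tested genes were lower. PDE12, a nuclease that removes poly(A) tails in mitochondria, had 16.7, 13.4 and 12.8 CPM in HCC827, against 33.6, 35.6 and 36.1 CPM in H1975, a log2 fold of -1.28 ± 0.11 (SE). ANGEL2 fell by 1.17 ± 0.11 on the log2 scale, and SLIRP, which binds and stabilises mitochondrial mRNAs together with LRPPRC, fell by 0.71 ± 0.09 (SE). LRPPRC fell by 0.23 ± 0.10, and MTPAP, the mitochondrial poly(A) polymerase, rose by 0.39 ± 0.10 (SE). Of 10 RNA processing genes 4 rose and 4 fell, with a median of 0.08. The enzymes that cut tRNAs out of the transcript were divided: ELAC2, which cuts at the 3′ end of tRNAs, rose (0.90 ± 0.11), as did PRORP (0.58 ± 0.09) and HSD17B10 (0.41 ± 0.13) of the complex that cuts at the 5′ end, while TRMT10C of the same complex fell (-0.70 ± 0.10). FASTKD3 had 5.38, 5.71 and 6.33 CPM in HCC827, against 10.7, 11.3 and 10.3 CPM in H1975, a log2 fold of -0.89 ± 0.12 (SE).

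RNA modification was the largest of the 6 lists of nuclear factors for mitochondrial RNA and DNA. It had the most genes higher, 12 of 19, with 5 lower and a median log2 fold of 0.53. For comparison, 36.1% of all tested genes were higher and 38.0% lower. These are TMM counts. With total gene counts only 14 genes of all 6 lists together were higher, and single lists were not recounted. RPUSD4, a pseudouridine synthase that acts on 16S rRNA, had 54.6, 61.4 and 56.6 CPM in HCC827, against 18.4, 16.1 and 19.3 CPM in H1975, a log2 fold of 1.68 ± 0.10 (SE). NSUN4, which methylates 12S rRNA and takes part in ribosome assembly, had 44.9, 47.8 and 40.5 CPM in HCC827, against 14.3, 15.8 and 15.5 CPM in H1975, a log2 fold of 1.54 ± 0.10 (SE). Neither gene overlapped between the lines. TRIT1, which modifies adenosine next to the anticodon of some tRNAs, had a log2 fold of 1.31 ± 0.10 and RPUSD3 one of 1.22 ± 0.13 (SE). Of 17 genes for mitochondrial DNA replication and upkeep 6 rose and 8 fell, with a median of -0.24. TOP1MT, the mitochondrial topoisomerase, rose (1.13 ± 0.09), and PRIMPOL, a primase and polymerase, fell (-1.02 ± 0.13). Of the 9 tested regulators of biogenesis 2 rose and 3 fell, with a median of -0.11, and ESRRA, a nuclear receptor of energy metabolism genes, rose (1.03 ± 0.09).

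**Figure D5:**
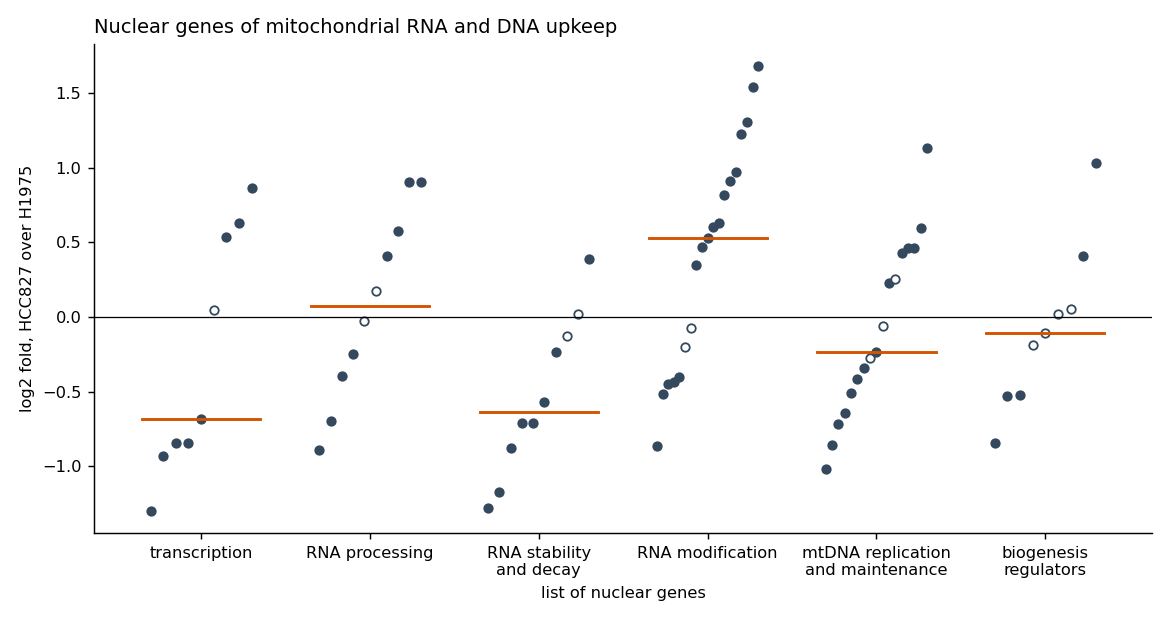
Log2 fold of HCC827 over H1975 for the nuclear genes of 6 lists, sorted within each list; filled points were called at an adjusted p below 0.05, open points were not, and the line is the median of the list. Medians run from -0.68 for transcription to 0.53 for RNA modification under TMM scaling; with total gene counts all folds lie lower, by 0.35 at the median of all genes.

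Under TMM scaling, the nuclear partners of the mitochondrial mRNAs rose more often than they fell. Of 79 nuclear subunits of complexes I to V, 51 were higher and 11 lower in HCC827, with a median log2 fold of 0.45. By complex, the higher and lower counts were 23 and 3 of 37 for complex I, 5 and 2 of 9 for complex III, 8 and 2 of 11 for complex IV and 13 and 4 of 18 for complex V. The median log2 fold was 0.38 for complex I, 0.56 for complex III, 0.97 for complex IV and 0.51 for complex V. Complex II, which has no mitochondrially encoded subunit, had 2 of 4 higher and none lower, with a median of 0.09. Of 22 mitochondrial aminoacyl-tRNA synthetases, which load the tRNAs, 12 rose and 4 fell, with a median of 0.34. These counts stand beside 36.1% higher and 38.0% lower over all tested genes. With total gene counts the median fold of all genes moved by -0.35, about as much as several of these medians. These lists were not recomputed under that scaling, so their rise may depend on it.

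Fragments of mitochondrial DNA also lie in nuclear chromosomes, and some are nearly identical to the mitochondrial genes. At chr1:629062-634922 (GRCh38), copies of MT-ND1, MT-ND2, MT-CO1, MT-CO2, MT-ATP8, MT-ATP6 and MT-CO3 lie in the same order and are 97.6 to 99.1% identical to them, so reads could be assigned to either place and the counts of these 7 genes are uncertain to that extent. The 4 copies with the highest mean level moved the same way as their parents. MTATP6P1 had 1786, 2364 and 1876 CPM in HCC827, against 1010, 1002 and 1011 CPM in H1975, a log2 fold of 1.00 ± 0.12 (SE). The log2 folds were 1.00 ± 0.12 for MTND2P28, 0.71 ± 0.10 for MTCO3P12 and 0.45 ± 0.12 for MTCO1P12 (SE), against 0.49, 0.60 and 0.48 for their parents. The fold of MTCO1P12 was 0.28 without HCC827 replicate 3. Of 404 nuclear copies 30 passed the filter on low counts. Of these, 16 rose and 2 fell under TMM scaling, with a median log2 fold of 0.57. Over all tested genes 36.1% were higher and 38.0% lower. With total gene counts MTCO1P12 was not called (0.09), and the count over all copies was not repeated. When the counts of the copies were added to the mitochondrial genes, an alternative chosen after seeing the data, 27 members were higher and 4 lower.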

How the data were processed

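Gene-level read counts of 6 Illumina libraries, 3 of HCC827 and 3 of H1975, were analysed. The deposited values are counts, whole reads per gene with no normalization, 1 file per library. The authors aligned to GRCh38, and the tools listed are minimap2 2.17 and featureCounts, all per the submitters' processing notes. Strand use, treatment of multiply aligned reads and the annotation release were not given in the sources used here and can move counts between mitochondrial genes, their antisense genes and their nuclear copies. Symbols and coordinates came from GENCODE 44, which matched 60357 of 60617 genes, and sequences from chrM of hg38 (16569 bases), where all 37 genes equal the GENCODE transcripts. The 76 sequin spike-ins stayed out of library sizes.

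Tests used edgeR 4.0.16 in R 4.3.3 (TMM, filterByExpr by group, quasi-likelihood test with robust dispersion, two-sided, Benjamini-Hochberg over all 25711 tested genes, threshold 0.05), tested on simulated data. CPM values use effective library sizes, except those of the cell type markers, which use total gene counts. Class shares and ratios were compared by exact permutation over libraries. The labels call the samples independent, and p-values measure the spread between these samples. Alternatives were DESeq2 1.42.0, limma 3.58.1 (voom), other scalings, other pools, no filter, a replicate block and leaving out each library. The members, gene lists and tests were chosen with earlier results of these data known. All 37 members are described. From the nuclear lists the 6 called genes with the largest rise and the 6 with the largest drop were named, with the 4 nuclear copies of highest mean CPM. TFAM, POLRMT, TFB2M, TEFM, SLIRP, LRPPRC, MTPAP, ELAC2, PRORP, HSD17B10 and TRMT10C were chosen after their values were seen.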

Additional observations from a re-analysis of the deposited data

Results flagged for a closer look

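Reads on nuclear copies of mitochondrial genes were found in the Oxford Nanopore libraries, which the comparison did not use and in which all 37 mitochondrial genes were listed at 0. The 404 copies took 0.678 ± 0.133% of gene counts in HCC827 and 0.547 ± 0.0509% in H1975 (SD, n = 3 each). In the Illumina libraries they took 0.483 ± 0.0222% in HCC827 and 0.354 ± 0.00425% in H1975. In the PacBio libraries they were at 0, which allows a share of up to 0.00552 to 0.00794%. The make-up of these shares differed between platforms. In HCC827 replicate 1, MTCO2P12, a copy of MT-CO2, had 332894 of 754973 copy counts in Oxford Nanopore and 2950 of 179361 in Illumina. In H1975 replicate 1 MTCO2P12 had 202762 of 547632 in Oxford Nanopore and 1307 of 131238 in Illumina. There are no control samples for the reads on nuclear copies, which were compared with the limit that a count of 0 allows.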

How the results depend on the processing

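Of 199 summary results recomputed under the alternatives, 196 did not change in direction or call (for counts of genes, in size by much). Of 1133 single gene results, 1069 did not change in direction or call. The 10 measures per library could not pass the test with so few libraries, so for them only a change of direction could count. The complex IV share difference thus counted as unchanged, at 2.36 percentage points without HCC827 replicate 3, against 4.65 with all libraries. With total gene counts in place of TMM, 7 members were called lower and 14 nuclear factors higher, and the log2 folds of MT-ND5 (-0.23), MT-ND6 (-0.28), MT-TE (-0.13) and MT-TG (-0.34) changed sign. MT-TG, close to 0, also changed sign with limma-voom (-0.12) and with no filter (-0.0066). Leaving out each library, the light strand share difference ranged from -0.856 to 3.12 percentage points, and log2 folds from -0.24 to 0.31 for MT-TG, -0.13 to 0.12 for MT-ND4L and -0.14 to 0.12 for MT-ND4. Relative to the mRNA pool, these ranges were -0.11 to 0.37 for MT-TI, -0.15 to 0.035 for MT-ND2, -0.27 to 0.18 for MT-TW, -0.23 to 0.044 for MT-CO1, -0.36 to 0.084 for MT-TS1 and -0.019 to 0.092 for MT-CO3. With all 37 members as the pool, MT-TI (-0.0020), MT-ATP8 (-0.081), MT-ATP6 (-0.066) and MT-CO3 (-0.13) changed sign. MT-TW, at the threshold, was called with DESeq2, with scaling from nuclear genes, with no filter and with the copies added, but not with limma-voom, DESeq2 size factors or total gene counts, and MT-TE was called with DESeq2 and limma-voom. The cause was not tested. Leaving out each library, 29 to 31 members were called, and 23 to 30 relative to the pool, the highest without HCC827 replicate 3.

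Same-numbered libraries of the lines did not clearly deviate together (r = -0.10, -0.06 and 0.14), and differently numbered ones gave -0.17 to 0.22. So few values cannot tell whether the numbers pair the libraries. With a replicate block 27 members were called higher and 4 lower, 55 nuclear factors were called, MT-TG changed sign (-0.068) and MT-TW was called (0.46). Depth limits the tRNA genes most, and HCC827 replicate 2 most of the libraries.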
